A study of Rattus norvegicus with 19 samples.

Results

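Left ventricles of rats treated with empagliflozin (EMPA) and taken at week 9 of the study were compared by RNA sequencing with left ventricles of control rats taken at week 5 (control 5w). The members were chosen by their sample titles, 2 libraries for EMPA and 3 for control 5w, which makes 5 of the 19 libraries of the series. The study asked whether EMPA and pirfenidone, alone or together, improve hearts of rats with heart failure with preserved ejection fraction (HFpEF). All rats were Sprague-Dawley and 24 weeks old at the start, and the labels give every sequenced heart as male. The EMPA rats had L-NAME at 0.5 g/L in the drinking water and a high-fat diet with 60% of its kilocalories from lard for 5 weeks, and then EMPA at 0.35 g/kg/day in phosphate-buffered saline by gavage for 4 weeks, a dose that the study calls supratherapeutic. The study's text also speaks of an induction of 9 weeks, so whether L-NAME and the diet went on beside the drug is not settled. The control rats had no L-NAME and, in the study's account, normal chow. The groups therefore differ at once in the drug, the gavage, L-NAME with the diet and 4 weeks of age, whose parts in a difference cannot be told apart. Other groups are used beside them. HFpEF rats had L-NAME at 0.5 g/L and the diet with 60% fat but no drug, and were taken at week 5. Control 9w rats had no L-NAME and no drug, with normal chow in the study's account, and were taken at week 9. The untreated, pirfenidone and EMPA with pirfenidone rats had L-NAME and the fat diet and were taken at week 9.

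Empagliflozin inhibits SGLT2, the sodium-glucose cotransporter of the kidney tubule, and so lets glucose leave with the urine and shifts the body's fuel use toward fatty acids and ketone bodies. L-NAME blocks the synthesis of nitric oxide, which relaxes vessels, and it is combined with a high-fat diet to model HFpEF. The working heart muscle draws most of its energy from fatty acids, and the kinases and phosphatases of pyruvate dehydrogenase set how much glucose carbon it burns beside them.

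The total counts were 11628931, 13017754 and 12616559 in control 5w replicates 1, 2 and 3, and 7430539 and 8061054 in EMPA replicates 1 and 2, so the EMPA libraries were the shallower ones. RT1-CE16, the class I gene whose absence from both groups belongs to the choice of the comparison, had 1, 0 and 0 counts in control 5w and none in EMPA, and the Y-linked Eif2s3y had 1204, 1321 and 1211 counts in control 5w and 676 and 789 in EMPA. Within control 5w the libraries were not equally alike: replicates 2 and 3 lay at least 2-fold apart in 127 of the 12388 tested genes, and replicate 1 lay that far from them in 2106 and 1678 genes. The EMPA libraries lay that far apart in 1095 genes, and the 6 pairs of an EMPA and a control 5w library in 1810 to 2761.

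Of the 12388 tested genes, 740 were differentially expressed (DEGs, with an adjusted p below 0.05 and a change of 2-fold or more), or 5.97%. In EMPA, 418 were higher (3.37% of the tested genes) and 322 were lower (2.60%). These shares are the background for every count of called list members given below. The median log2 fold change, here always EMPA minus control 5w, was -0.02 over all tested genes, 1.76 over the higher DEGs and -1.51 over the lower ones. Standard errors (SE) of log2 fold changes were taken as the size of the fold change over the square root of F. Both EMPA libraries lay above or below all 3 control 5w libraries in 713 of the DEGs, as they did in 48.2% of all tested genes (3074 or 24.8% upward and 2895 or 23.4% downward), and an exact permutation test of 2 against 3 libraries cannot give a p below 0.1. Among the controls, replicate 1 lay nearest to EMPA in 434 DEGs (58.6%), replicate 2 in 162 and replicate 3 in 137. The count of DEGs was 1101, 343 and 363 without control 5w replicate 1, 2 and 3, and 197 and 346 without EMPA replicate 1 and 2.

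**Figure D1:**
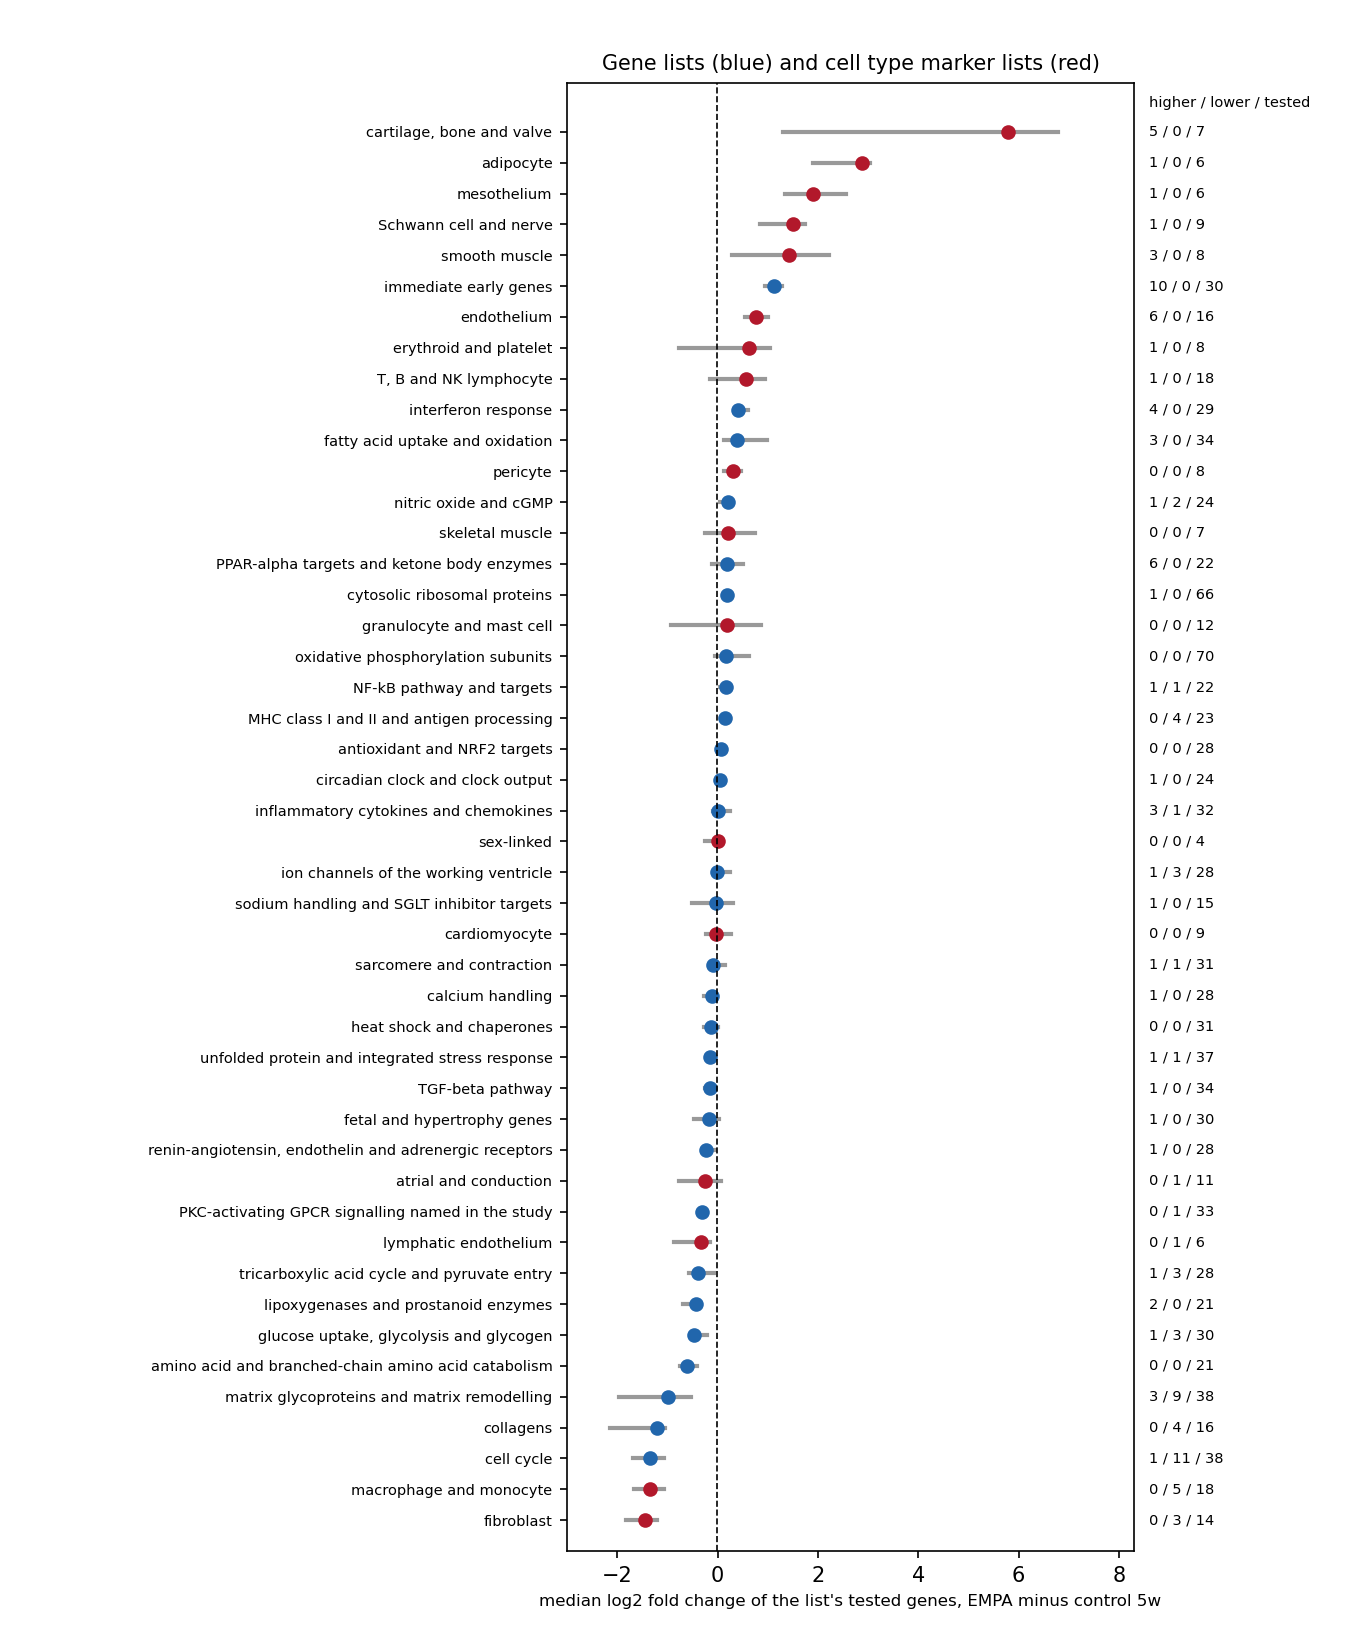
Each dot is the median log2 fold change, EMPA minus control 5w, over the tested genes of 1 list, and each grey bar runs from the lowest to the highest median when 1 of the 5 libraries is left out. Numbers at the right give the DEGs higher in EMPA, the DEGs lower and the tested genes, and the dashed line is the median of all tested genes (-0.02). The medians run from -1.45 for fibroblast markers to 5.78 for cartilage, bone and valve markers, whose bar is the widest.

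Pdk4, the kinase that switches pyruvate dehydrogenase off, measured 36.3, 23.7 and 26.9 CPM (counts scaled by library size and TMM factor) in control 5w replicates 1, 2 and 3, and 507 and 302 CPM in EMPA replicates 1 and 2. The lower EMPA library stood more than 8-fold above the highest control. Pdk4 rose, with 3.80 on the log2 scale as its edgeR estimate (SE 0.67, adjusted p = 0.0042). Angptl4, a secreted inhibitor of lipoprotein lipase and target of the fatty acid receptor PPAR-alpha, had 1.22, 1.32 and 0.955 CPM in control 5w and 54.5 and 61.6 CPM in EMPA. Both EMPA hearts were high and all controls were close to 1 CPM, and the rise was 5.62 (SE 0.46, adjusted p = 2.26e-05). In the list of PPAR-alpha targets and ketone body enzymes, 6 of 22 tested genes rose and none fell, against 3.37% and 2.60% of all tested genes. The list's median was 0.19. It turned to -0.12 without EMPA replicate 1 and was also negative under 3 other alternatives. It was 0.52 without control 5w replicate 1, 0.02 and 0.03 without replicates 2 and 3, and 0.34 without EMPA replicate 2. Both EMPA libraries lay above all controls in 9 genes of the list and below them in 9, against 24.8% and 23.4% of all tested genes. The most abundant member and the one with the lowest fold change was Oxct1, which activates ketone bodies for oxidation and was named after its values were seen. It had 2138, 1462 and 1542 CPM in control 5w and 569 and 753 CPM in EMPA and was not called (-1.38, SE 0.51, adjusted p = 0.0834). Acot1, Ucp3 and Cyp4b1 rose as well, the last pair named after their values were seen. Acot1, which splits acyl-CoA, had 0.848, 0.310 and 0.318 CPM in control 5w and 7.32 and 4.74 CPM in EMPA. It was higher in each EMPA library than in each control and rose by 3.62 (SE 0.70, adjusted p = 0.00588). Without EMPA replicate 1 the call of Acot1 ended (log2 3.27), and without control 5w replicate 1 its value was 4.21. Ucp3 and Cyp4b1 rose by 3.50 and 1.54. Ucp3 lost its call without control 5w replicate 3 (3.22) or EMPA replicate 1 (3.00) and reached 4.80 without control 5w replicate 1, and Cyp4b1 lost it without control 5w replicate 2 (1.40) or 3 (1.51) or EMPA replicate 1 (1.22). In all, the count of risers in this list was 6, 4, 3, 2 and 6 without control 5w replicates 1, 2 and 3 and EMPA replicates 1 and 2, each left out alone.

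Among the 34 tested genes of fatty acid uptake and oxidation 3 rose and none fell, against 3.37% and 2.60% of all tested genes. The median was 0.39. That median was 0.98, 0.12 and 0.16 without control 5w replicates 1, 2 and 3, and 0.16 and 0.66 without EMPA replicates 1 and 2. The summed level of the list was 20620.4, 7595 and 8955 CPM in control 5w and 20659.6 and 14137 CPM in EMPA, so control 5w replicate 1 was level with EMPA replicate 1. Both EMPA libraries lay above all controls in 8 of its genes and below them in 1, against 24.8% and 23.4% of all tested genes. Lipe, the hormone-sensitive lipase that frees fatty acids from stored fat, was at 76.4, 64.1 and 74.2 CPM in control 5w and at 383 and 319 CPM in EMPA. The EMPA hearts were 4-fold or more above every control, with a rise of 2.29 (SE 0.36, adjusted p = 0.00288). Lipe is also an adipocyte marker, and 5 of the 6 tested adipocyte markers lay higher in both EMPA libraries than in all controls, against 24.8% of all tested genes. The part of fat tissue in this rise was not tested. Decr1, a mitochondrial reductase needed to oxidize unsaturated fatty acids, was at 183, 89.8 and 98.7 CPM in control 5w and at 819.9 and 479 CPM in EMPA. Control 5w replicate 1 was the highest control and still lay below both EMPA libraries. The rise of Decr1 was 2.39 (SE 0.47, adjusted p = 0.00652) and no longer passed without EMPA replicate 1 (1.95). Leaving out control 5w replicate 1 raised the list's count of risers to 6, and leaving out EMPA replicate 1 lowered it to 1.

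Hk2, the insulin-regulated hexokinase that traps glucose in the cell, measured 77.4, 83.1 and 74.7 CPM in control 5w and 8.66 and 13.2 CPM in EMPA. The control hearts were nearly level and every one of them was more than 5-fold above both EMPA hearts. Hk2 fell by 2.84 (log2, SE 0.36, adjusted p = 0.000749). Pfkfb1, which makes the activator of phosphofructokinase, measured 2.36, 0.931 and 0.637 CPM in control 5w and 14.0 and 9.47 CPM in EMPA. It was low in all controls and at least 4-fold higher in both EMPA hearts, a rise of 3.18 (SE 0.49, adjusted p = 0.00242) that was 3.88 without control 5w replicate 1. In the whole list of glucose uptake, glycolysis and glycogen, Pfkfb1 was the only one of 30 tested genes to rise. In the same list 3 genes fell (Hk2, Eno3 and Gys1), where 3.37% of all tested genes rose and 2.60% fell. The median was -0.47 (-0.20 without control 5w replicate 1). Both EMPA libraries lay below all controls in 14 genes and above them in 2, against 23.4% and 24.8% of all tested genes. Eno3, the muscle enolase, was at 779, 241 and 303 CPM in control 5w and at 141 and 86.1 CPM in EMPA, with control 5w replicate 1 far above the rest. It fell by 1.95 (SE 0.53, adjusted p = 0.0276), a call that ended without control 5w replicate 1 (-1.25), EMPA replicate 1 (-2.36) or EMPA replicate 2 (-1.64). The call of Gys1, glycogen synthase, at -1.37 ended without the same libraries (-1.05, -1.34 and -1.41); this gene was named after its values were seen. Among 28 tested genes of the tricarboxylic acid cycle and pyruvate entry Pdk4 rose and 3 fell, against 3.37% and 2.60% of all tested genes. Both EMPA libraries lay below all controls in 11 of these genes and above them in 1, against 23.4% and 24.8% of all tested genes. The median was -0.40. It was -0.08 without control 5w replicate 1, and it turned to 0.06 without control 5w replicate 1 and EMPA replicate 2 together. The genes that fell were Ogdh, a subunit of the 2-oxoglutarate dehydrogenase complex, and Pdp2 and Pdp1, the phosphatases that oppose Pdk4. Pdp2 had 23.7, 13.6 and 17.1 CPM in control 5w and 4.79 and 5.10 CPM in EMPA, and Ogdh had 631, 309 and 358 CPM and 154 and 118 CPM. All controls lay above both EMPA hearts for each. The falls were -1.87 for Pdp2 (SE 0.43, adjusted p = 0.014) and -1.67 for Ogdh (SE 0.40, adjusted p = 0.0164). Both calls ended without EMPA replicate 1 (-1.83 and -1.88) or EMPA replicate 2 (-1.92 and -1.49). Pdp1, named after its values were seen, was at -1.09 and lost its call without control 5w replicate 1 (-0.77) or either EMPA library (-1.13 and -1.05).

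edgeR called none of 70 tested subunits of oxidative phosphorylation, 2 had an unadjusted p under 0.05, and DESeq2 called 0 and limma voom 7. The median was 0.17, and it turned to -0.05 without EMPA replicate 1 and -0.03 without control 5w replicate 2 and went to 0.63 without control 5w replicate 1, where 3 subunits passed as higher, to 0.00 without replicate 3 and to 0.38 without EMPA replicate 2. The summed level of these subunits was 59868, 28487 and 31478 CPM in control 5w and 45804 and 35935 CPM in EMPA, with the highest value in control 5w replicate 1. Of the 70 subunits 1 did not overlap upward and 5 downward, against 24.8% and 23.4% of all tested genes. Enzymes of amino acid and branched-chain amino acid catabolism had a median of -0.61, 16 of 21 below 0, and no call by edgeR (5 at an unadjusted p under 0.05, 1 call by DESeq2 and 1 by limma voom). Txnip, an arrestin-like protein that curbs glucose uptake and thioredoxin, was among the most abundant genes to rise, from 508, 516 and 517 CPM in control 5w to 2579 and 1869.9 CPM in EMPA. The controls were level and both EMPA hearts were far above them, and Txnip rose by 2.11 (SE 0.28, adjusted p = 0.000768). Depp1, a target of the transcription factor FOXO, went from 135, 94.9 and 110.3 CPM to 553 and 602 CPM, with no overlap, at 2.35 (SE 0.30, adjusted p = 0.000673).

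**Figure D2:**
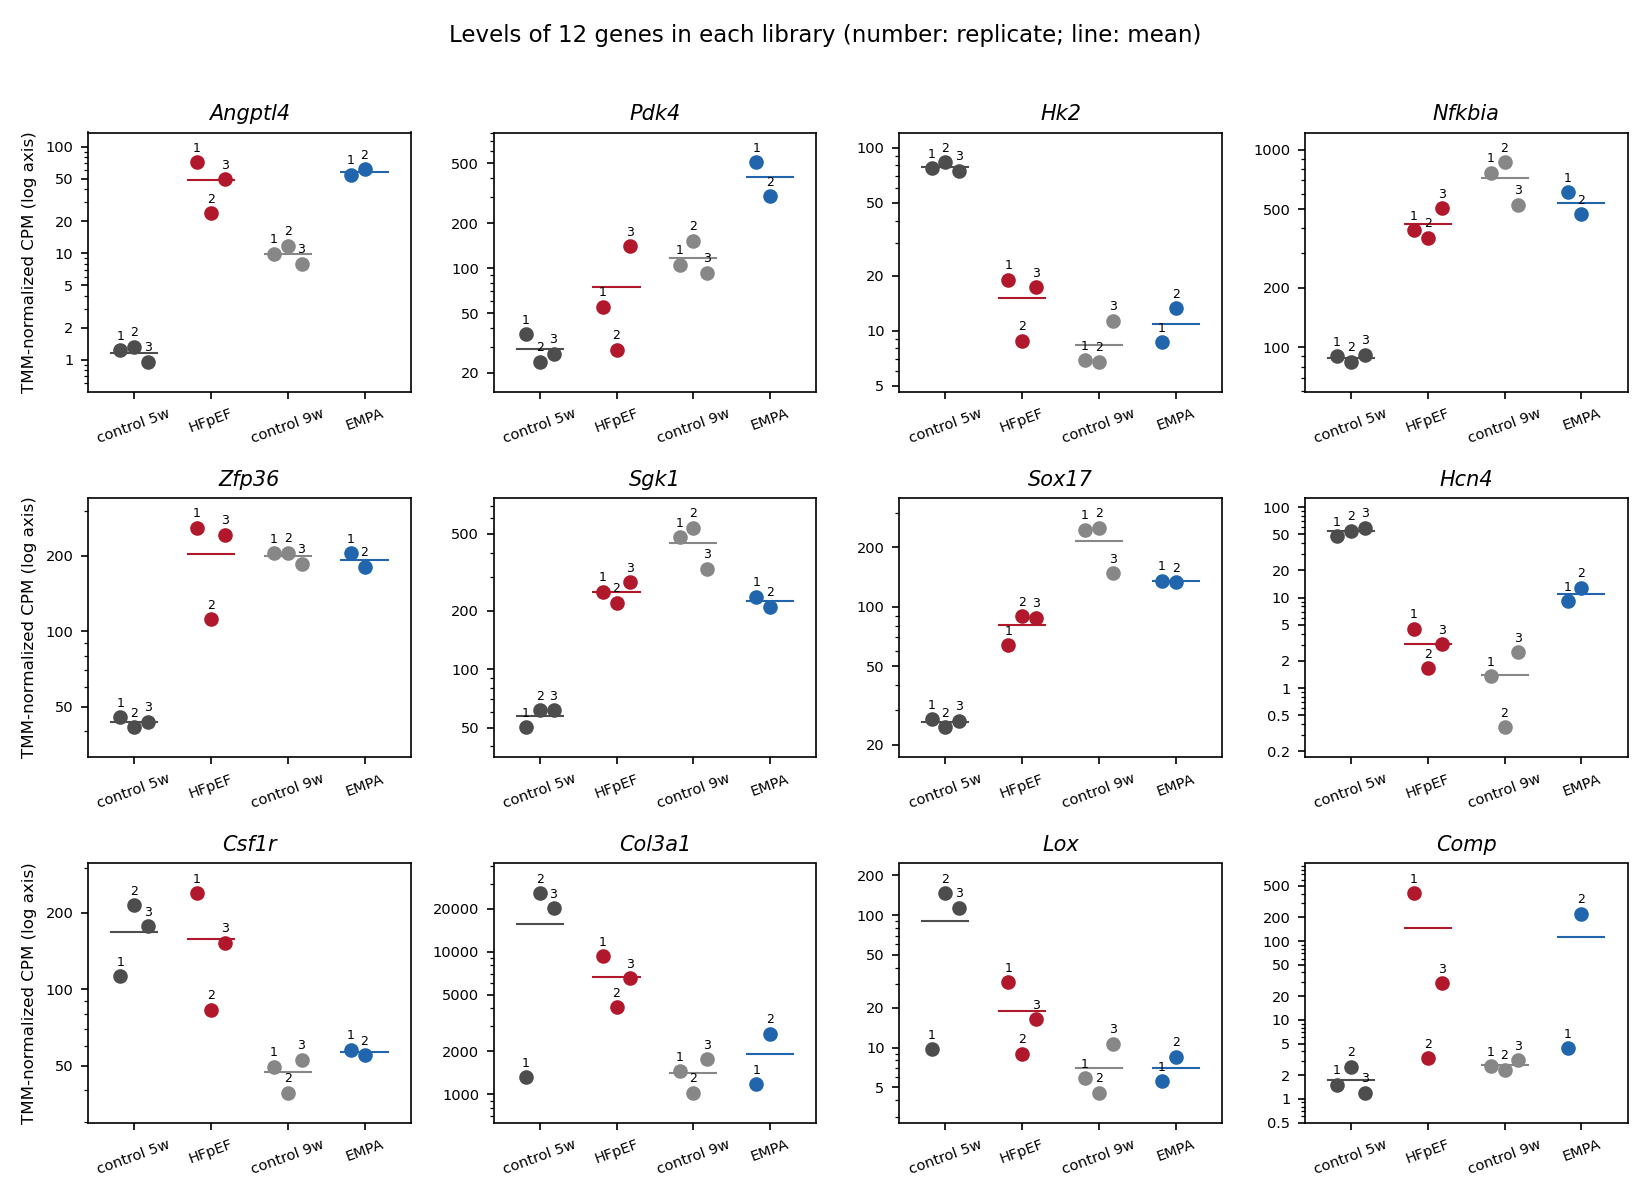
Levels of 12 genes in TMM-normalized CPM on a log axis, 1 dot per library with its replicate number and a line at the group mean, for control 5w, HFpEF, control 9w (3 libraries each) and EMPA (2 libraries). Angptl4 lies between 54.5 and 61.6 CPM in EMPA and at or below 1.32 CPM in control 5w, while for Col3a1 and Lox control 5w replicate 1 lies beside EMPA and for Comp EMPA replicate 2 lies far above replicate 1.

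Cells switch on immediate early genes within minutes of a stimulus, without new protein synthesis. Of 30 tested members 10 rose, against 3.37% of all tested genes, none fell and the rest were not called. The median was 1.13 against -0.02 over all tested genes. In 24 members both EMPA libraries lay above all controls, against 24.8% of all tested genes. Their summed level was 1089.5, 1429 and 1416 CPM in control 5w and 2882 and 2920.2 CPM in EMPA, the most abundant member being Klf6. Zfp36, which speeds the decay of cytokine messenger RNAs, had 45.5, 41.4 and 43.7 CPM in control 5w and 205 and 181 CPM in EMPA. Btg2, an antiproliferative gene, had 70.4, 62.9 and 68.7 CPM and 159 and 204 CPM. The controls of both genes sat within a narrow band well below the EMPA hearts. Zfp36 rose by 2.15 (SE 0.26, adjusted p = 0.00066) and Btg2 by 1.43 (SE 0.18, adjusted p = 0.000673). Per1, an immediate early gene that is also a repressor of the circadian clock, had 54.9, 71.9 and 72.2 CPM in control 5w and 376 and 319 CPM in EMPA. It rose by 2.39 (SE 0.34, adjusted p = 0.00139) and was the only called gene among 24 tested clock and clock output genes, whose median was 0.06 (0.11 without control 5w replicate 1, 0.02 without replicate 3 and 0.12 without EMPA replicate 2). The clock repressor Per2 had 75.5, 67.3 and 61.6 CPM in control 5w and 69.8 and 69.1 CPM in EMPA, Nr1d1 had 83.4, 78.8 and 74.7 CPM and 63.8 and 62.4 CPM, and Dbp had 103, 45.2 and 45.8 CPM and 42.6 and 34.1 CPM. For Arntl, the clock's activator, the values were 32.6, 59.2 and 62.4 CPM and 60.1 and 65.6 CPM. None of these 4 was called, and the groups overlapped for Per2 and Arntl. The time of day at which hearts were taken is not given in the labels. The count of risers among the immediate early genes was 8, 10, 9, 6 and 7 without control 5w replicates 1, 2 and 3 and EMPA replicates 1 and 2, each left out alone, and Zfp36, Btg2 and Per1 passed each time.

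The promoter windows of immediate early genes were searched for TGACGTCA, the palindromic cyclic AMP response element, since 10 of the 30 tested members rose and none fell. RefSeq windows of 300 bases, from 250 before to 50 after the start of transcription, matched 21 of the 30 tested members by symbol. The motif lay in 5 of these 21 windows, and in 1.83% of all 33469 windows in the table. Of the 8 risers with a window it was in Btg2, Dusp1 and Ier2, and its letters were not in the windows of the other 5. Dusp1 and Ier2 fell outside the rule for named genes and were chosen after their values were seen; Dusp1, a phosphatase of MAP kinases, had 102, 91.2 and 86.9 CPM in control 5w and 340.0 and 272 CPM in EMPA (log2 1.71), and Ier2 had 39.5, 40.3 and 40.7 CPM and 88.2 and 73.7 CPM (log2 1.01, no longer called without EMPA replicate 1 at 0.88). The windows of Btg2 (GRCr8 chr13:48087641-48087940, minus strand) and Ier2 (chr19:40399123-40399422, plus strand) are printed to show where the motif, in capitals, lies.
Btg2: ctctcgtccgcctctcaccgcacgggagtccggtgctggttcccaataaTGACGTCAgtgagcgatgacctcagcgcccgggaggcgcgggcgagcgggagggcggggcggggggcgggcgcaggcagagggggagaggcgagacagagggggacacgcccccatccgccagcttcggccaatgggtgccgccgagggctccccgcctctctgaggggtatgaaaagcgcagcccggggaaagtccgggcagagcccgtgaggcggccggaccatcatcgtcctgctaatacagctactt
Ier2: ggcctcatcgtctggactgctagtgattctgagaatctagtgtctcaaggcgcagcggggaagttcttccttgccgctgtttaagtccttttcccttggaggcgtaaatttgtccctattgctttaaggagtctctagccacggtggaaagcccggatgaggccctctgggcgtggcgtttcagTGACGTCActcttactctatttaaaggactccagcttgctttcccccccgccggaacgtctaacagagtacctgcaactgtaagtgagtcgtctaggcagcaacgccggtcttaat

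Nfkbia encodes the inhibitor that holds NF-kB in the cytoplasm and is itself induced by NF-kB. It had 90.3, 84.6 and 91.8 CPM in control 5w and 609.7 and 471 CPM in EMPA. Every EMPA library was more than 5-fold above every control, a rise of 2.60 (SE 0.27, adjusted p = 0.000287). Tnfaip2 went the other way, with 43.2, 43.6 and 45.9 CPM in control 5w and 18.1 and 19.6 CPM in EMPA. It fell by 1.23 (SE 0.28, adjusted p = 0.012), and no longer passed without EMPA replicate 1 (-1.18) or 2 (-1.29). These were the only calls among 22 tested genes of the NF-kB pathway and its targets, whose median was 0.17 (0.06 without EMPA replicate 1). Sgk1, a kinase induced by corticosteroids that acts on sodium transport, had 50.1, 61.4 and 61.3 CPM in control 5w and 237 and 210.5 CPM in EMPA. All controls were low, and Sgk1 rose by 1.96 (SE 0.23, adjusted p = 0.00066). Rhob, a small GTPase, had 187, 242 and 228 CPM in control 5w and 579.8 and 553 CPM in EMPA, a rise of 1.37 (SE 0.16, adjusted p = 0.00066). Of 37 tested genes of the unfolded protein and integrated stress response, the mTORC1 inhibitor Ddit4 rose (log2 1.83), Sdf2l1 of the endoplasmic reticulum fell (-1.12) and the median was -0.14. Ddit4 lost its call without EMPA replicate 1 (1.73), and Sdf2l1 without control 5w replicate 2 (-1.02), EMPA replicate 1 (-1.17) or EMPA replicate 2 (-1.08).

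Of 38 tested cell cycle genes 11 fell and 1 rose, against 2.60% and 3.37% of all tested genes, and 26 were not called. A negative log2 fold change was found in 35, and the median was -1.34. In 28 of the genes both EMPA libraries lay below all controls, against 23.4% of all tested genes. The summed level was 815, 1063 and 1040.0 CPM in control 5w and 603 and 679 CPM in EMPA, with Ccnd1 as the most abundant gene. Tyms, which makes thymidylate for DNA synthesis, had 15.3, 15.8 and 16.6 CPM in control 5w and 7.46 and 5.71 CPM in EMPA. Kif23, a motor protein of cell division, had 6.97, 15.8 and 17.3 CPM and 4.00 and 4.49 CPM. The controls of Tyms were level, whereas for Kif23 control 5w replicate 1 was the lowest control and the nearest to EMPA. Tyms fell by 1.27 (SE 0.28, adjusted p = 0.0107) and Kif23 fell by 1.66 (SE 0.43, adjusted p = 0.0222). The call of Tyms ended without EMPA replicate 1 (-1.48) or 2 (-1.09), and that of Kif23 without control 5w replicate 2 (-1.52), control 5w replicate 3 (-1.43) or either EMPA library (-1.57 and -1.74). Polq, a DNA polymerase that repairs double-strand breaks by end joining, stood outside the list, with 58, 54 and 45 counts in control 5w and 3 and 2 counts in EMPA. Both EMPA libraries had almost none of it, at 0.0730 times the control level (95% counting interval 0.0234 to 0.174), and its fall (adjusted p = 0.00262) passed without any single library. The riser of the list was Cdkn1a, the inhibitor p21 that halts the cycle, with 30.9, 56.6 and 50.9 CPM in control 5w and 131 and 138 CPM in EMPA. It rose by 1.54 (SE 0.36, adjusted p = 0.014), a call that ended without EMPA replicate 1 (1.58) or 2 (1.498). The number of list genes that fell was 17, 1, 1, 0 and 0 without control 5w replicates 1, 2 and 3 and EMPA replicates 1 and 2, each left out alone, while the median stayed between -1.69 and -1.07.

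The same windows were searched for CCAAT, the binding sequence of NF-Y, and for TTTGAA, the cell cycle genes homology region, on both strands. A window was found for 28 of the 38 tested cell cycle genes, CCAAT lay in 19 of these and TTTGAA in 12, against 37.5% and 18.3% of all 33469 windows. Of the 8 called genes with a window, Kif23, Mki67 and Top2a held both motifs. Tyms, which fell, and Cdkn1a, the riser among the 8, held neither. Mki67 and Top2a, chosen after their values were seen, encode a proliferation marker and DNA topoisomerase II. Mki67 had 25.2, 51.2 and 52.0 CPM in control 5w and 12.7 and 10.2 CPM in EMPA (log2 -1.91), and Top2a had 17.5, 49.7 and 46.1 CPM and 7.46 and 8.38 CPM (log2 -2.25). Control 5w replicate 1 was the lowest control for both, and both calls ended without control 5w replicate 2 (-1.76 and -2.01), control 5w replicate 3 (-1.74 and -2.08), EMPA replicate 1 (-2.07 and -2.17) or EMPA replicate 2 (-1.76 and -2.34). Their windows (GRCr8 chr1:199952544-199952843 and chr10:84473044-84473343, both on the minus strand) are shown with the motifs and their reverse complements ATTGG and TTCAAA in capitals; in Mki67 a TTTGAA and an ATTGG overlap.
Mki67: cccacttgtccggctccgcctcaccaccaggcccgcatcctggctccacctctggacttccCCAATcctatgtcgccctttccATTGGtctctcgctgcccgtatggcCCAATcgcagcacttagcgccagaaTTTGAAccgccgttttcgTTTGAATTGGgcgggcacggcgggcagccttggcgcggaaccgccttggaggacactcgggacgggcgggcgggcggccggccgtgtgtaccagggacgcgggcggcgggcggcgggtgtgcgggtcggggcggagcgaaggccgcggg
Top2a: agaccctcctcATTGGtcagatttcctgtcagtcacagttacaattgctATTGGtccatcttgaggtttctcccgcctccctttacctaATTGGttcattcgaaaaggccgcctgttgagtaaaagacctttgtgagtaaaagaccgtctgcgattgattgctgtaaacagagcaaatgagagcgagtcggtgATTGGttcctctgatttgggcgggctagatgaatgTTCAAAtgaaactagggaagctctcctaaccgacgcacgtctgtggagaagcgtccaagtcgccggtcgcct

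Several genes of the extracellular matrix fell, and control 5w replicate 1 was often the control nearest to the EMPA libraries. Col3a1, a fibrillar collagen, had 1319.9, 25573 and 20226 CPM in control 5w replicates 1, 2 and 3 and 1170.4 and 2653 CPM in EMPA replicates 1 and 2. Control 5w replicate 1 fell between the EMPA libraries, so the groups overlapped. Lox, which cross-links collagen and elastin, had 9.70, 146 and 113 CPM in control 5w and 5.59 and 8.50 CPM in EMPA. Its control replicate 1 was only just above EMPA replicate 2. Fbn1, the fibrillin of the elastic microfibril, had 355, 1952 and 1591 CPM in control 5w and 125 and 262 CPM in EMPA, again with control replicate 1 the nearest to EMPA. Col14a1, a collagen on the surface of fibrils, had 265, 918 and 749 CPM and 102 and 138 CPM, with no overlap. The falls were -3.04 for Col3a1 (SE 0.91, adjusted p = 0.0397), -3.66 for Lox (SE 0.87, adjusted p = 0.0155), -2.75 for Fbn1 (SE 0.71, adjusted p = 0.0225) and -2.42 for Col14a1 (SE 0.55, adjusted p = 0.0127). Without EMPA replicate 1 none of these 4 was called (in the same order -2.56, -3.40, -2.31 and -2.22), and without EMPA replicate 2 none was (-3.75, -4.00, -3.38 and -2.67). Without control 5w replicate 2 the calls of Col3a1, Lox and Fbn1 ended (-2.49, -3.12 and -2.33), and without control 5w replicate 3 those of Col3a1 and Fbn1 (-2.81 and -2.58). With the replicate number as a block the calls of Col3a1 and, described below, Col5a1 and Eln ended. Over all alternatives these genes lay between -4.30 and -2.49, between -2.78 and -1.54, and between -4.05 and -2.40. Of 16 tested collagens, 4 fell (Col14a1, Col5a1, Col3a1 and Col8a1, the last named after its values were seen), against 2.60% of all tested genes. The median was -1.21, or -2.14 without EMPA replicate 2. Both EMPA libraries lay below all controls in 4 of the collagens and above them in 0, where 23.4% and 24.8% of all tested genes did so. Col5a1, a minor fibrillar collagen, was at -1.98 and Col8a1 at -2.95. Their calls ended without control 5w replicate 2 (-1.54 and -2.43), control 5w replicate 3 (-1.80 and -2.71) or EMPA replicate 1 (-1.72 and -2.15), and without EMPA replicate 2 that of Col5a1 ended (-2.31) and Col8a1 was at -4.92. Of 38 tested matrix glycoproteins and remodelling genes 9 fell and 3 rose, against 2.60% and 3.37% of all tested genes. The median was -0.98. It moved to -1.48 and -0.65 without control 5w replicates 1 and 2, and to -0.53 and -1.96 without EMPA replicates 1 and 2. In 9 genes of this list both EMPA libraries lay below all controls and in 5 above them, the former close to the 23.4% of all tested genes and the latter below the 24.8%. Among those that fell, Eln, elastin, had 76.9, 1973 and 1293 CPM in control 5w and 99.2 and 160.2 CPM in EMPA, with control 5w replicate 1 below both EMPA libraries. Serpinh1, the collagen chaperone, had 555, 1358 and 1240.3 CPM and 363 and 523 CPM, and Fbn2, a second fibrillin, had 2.64, 16.1 and 15.9 CPM and 1.20 and 0.850 CPM. Their log2 fold changes were -3.10, -1.25 and -3.49, and all 3 calls ended without control 5w replicate 2 (-2.40, -1.02 and -3.17), control 5w replicate 3 (-2.98, -1.11 and -3.19), EMPA replicate 1 (-2.80, -1.01 and -3.75) or EMPA replicate 2 (-3.49, -1.54 and -3.26). The counts of genes that fell, with control 5w replicates 1, 2 and 3 and EMPA replicates 1 and 2 each left out alone, were 8, 1, 1, 0 and 1 for the collagens and 16, 0, 1, 0 and 0 for the matrix list. Col1a1, the main fibrillar collagen, had 496, 9900.5 and 7974 CPM in control 5w and 316 and 2989 CPM in EMPA and was not called (-1.89, SE 1.01, adjusted p = 0.213), with -1.03 and -4.28 without EMPA replicate 1 and 2. Tgfb1, the growth factor that drives matrix production, had 50.2, 73.4 and 80.1 CPM and 50.7 and 55.4 CPM and was not called either. In the TGF-beta pathway list only Id1, a BMP-induced inhibitor of differentiation, was called among 34 tested genes, as higher (1.25, and 1.01 with the call ended without EMPA replicate 1), and the median was -0.15 (-0.05 without control 5w replicate 2, -0.04 and -0.24 without EMPA replicates 1 and 2).

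Matrix genes that rose were Timp4, Fmod and Comp. Timp4, the metalloproteinase inhibitor of heart muscle, had 30.6, 19.2 and 21.3 CPM in control 5w and 95.5 and 65.8 CPM in EMPA. Both EMPA hearts were more than 2-fold above every control, and Timp4 rose by 1.77 (SE 0.45, adjusted p = 0.0209). Its call ended without control 5w replicate 2 (1.64), control 5w replicate 3 (1.70), EMPA replicate 1 (1.47) or EMPA replicate 2 (2.01). All 14 tested fibroblast markers had a negative log2 fold change, and the median was -1.45. Of these markers 3 fell (Pdgfra, Col3a1 and Fbln1, the last named after its values were seen), against 2.60% of all tested genes. Both EMPA libraries lay below all controls in 4 of the 14 markers, against 23.4% of all tested genes. Their summed level was 8724, 46176 and 37860 CPM in control 5w and 7278 and 10497 CPM in EMPA, Col3a1 being the most abundant, and no marker was at 0. Pdgfra, the growth factor receptor of fibroblasts, had 225, 438 and 345 CPM in control 5w and 125 and 102 CPM in EMPA. It fell by 1.57 (SE 0.46, adjusted p = 0.0361), with all controls above both EMPA hearts, and its call ended without control 5w replicate 2 (-1.33), control 5w replicate 3 (-1.55), EMPA replicate 1 (-1.72) or EMPA replicate 2 (-1.43). No fibroblast marker, Fbln1 (-1.76) included, was called without control 5w replicate 2 (Fbln1 at -1.43), control 5w replicate 3 (-1.60), EMPA replicate 1 (-1.47) or EMPA replicate 2 (-2.12), and 7 markers were without control 5w replicate 1. In bulk tissue, fewer cells of a type and less RNA per cell cannot be told apart. The part of fibroblast number in the matrix result was not tested, nor was the part of the cells of any other marker list in the results given with it.

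**Figure D3:**
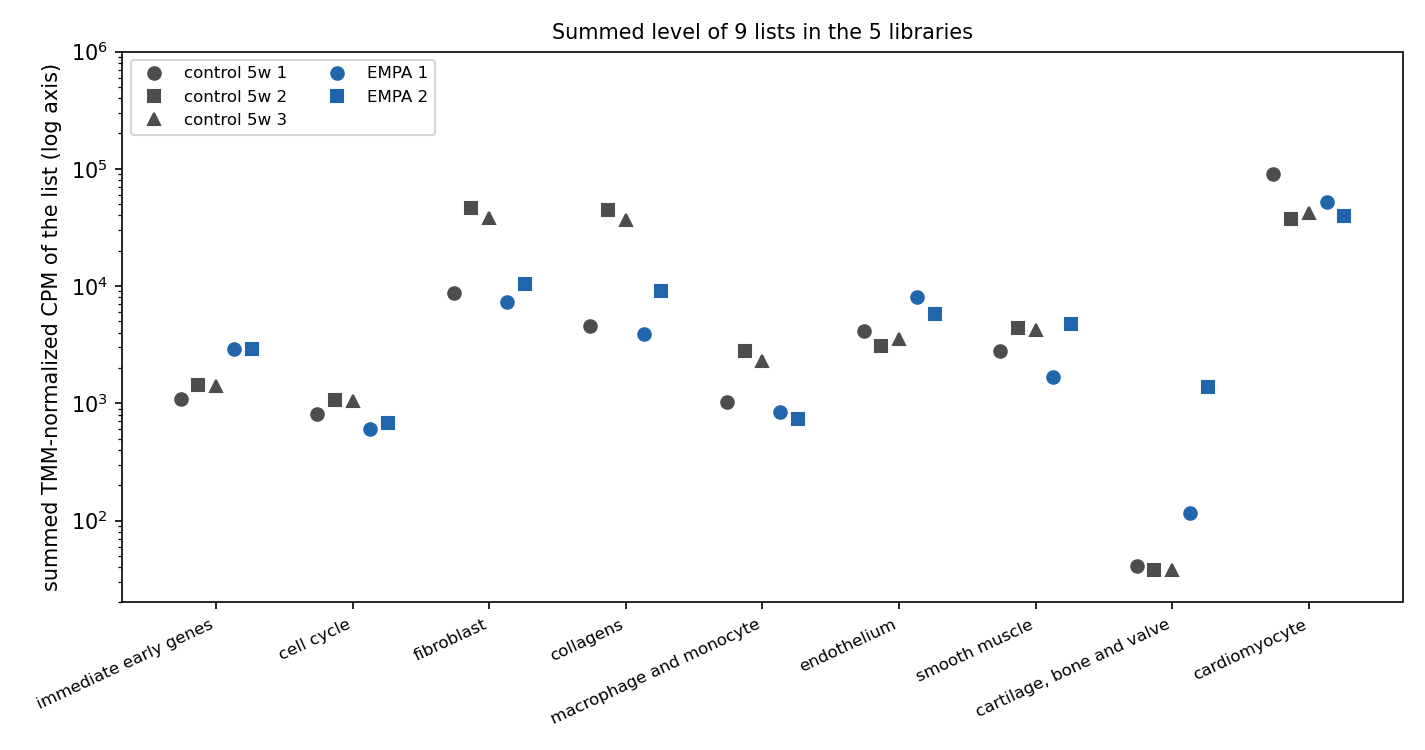
Summed TMM-normalized CPM of 9 lists, on a log axis, in the 3 control 5w libraries (grey) and the 2 EMPA libraries (blue), with the replicate given by the symbol. Fibroblast markers sum to 8724, 46176 and 37860 CPM in control 5w and 7278 and 10497 CPM in EMPA, so that control 5w replicate 1 lies with EMPA, and cartilage, bone and valve markers reach 116 and 1389.8 CPM in EMPA.

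All 18 tested macrophage and monocyte markers had a negative log2 fold change, and the median was -1.35. Of these, 10 did not overlap downward (against 23.4% of all tested genes) and 5 fell (against 2.60%). The 5 were Csf1r and Folr2 and, named after their values were seen, Adgre1, Ctss and C1qa. The summed level was 1016, 2765 and 2284 CPM in control 5w and 836 and 736 CPM in EMPA, with Lyz2 the most abundant and no marker at 0, and control 5w replicate 1 again lay nearest to EMPA. Csf1r, the receptor that macrophages need to survive, had 113, 214 and 177 CPM in control 5w and 57.9 and 54.9 CPM in EMPA. Folr2, a folate receptor of resident macrophages, had 22.1, 34.4 and 28.0 CPM and 10.3 and 8.62 CPM. Every control was above both EMPA hearts for both genes. Csf1r fell by 1.58 (SE 0.39, adjusted p = 0.0183) and Folr2 by 1.58 (SE 0.40, adjusted p = 0.0204). Their calls ended without control 5w replicate 2 (-1.36 and -1.41), control 5w replicate 3 (-1.54 and -1.58), EMPA replicate 1 (-1.61 and -1.71) or EMPA replicate 2 (-1.54 and -1.46), and then no macrophage marker passed, against 9 without control 5w replicate 1. In these 4 fits Adgre1, Ctss and C1qa, at -2.02, -1.64 and -1.71 with all libraries, lay between -2.26 and -1.82, between -1.87 and -1.38, and between -2.08 and -1.42. Of 23 tested genes of antigen presentation 4 fell, against 2.60% of all tested genes. All 4 were of class II: Cd74, RT1-Ba and, named after their values were seen, RT1-Da and RT1-Db1. Cd74, the invariant chain that guides class II molecules, had 871, 1430.3 and 1347 CPM in control 5w and 498 and 276 CPM in EMPA. It fell by 1.65 (SE 0.35, adjusted p = 0.00952) with no overlap, and lost its call without EMPA replicate 2 (-1.29). RT1-Ba, RT1-Da and RT1-Db1, chains of class II molecules, were at -2.07, -1.98 and -1.68, and all 3 calls ended without control 5w replicate 2 (-1.86, -1.75 and -1.50), control 5w replicate 3 (-1.85, -1.79 and -1.53), EMPA replicate 1 (-2.04, -2.18 and -2.15) or EMPA replicate 2 (-2.10, -1.80 and -1.33). The list's median was 0.15 (0.08 without control 5w replicate 1, 0.07 and 0.24 without EMPA replicates 1 and 2). It was 0.39 when genes with a group at 0 counts are set to a floor of 3 counts per library. RT1-CE16 and RT1-A3, with 1, 0 and 0 counts in control 5w and none in EMPA, then count as higher in EMPA. That floor lies above their control level, so nothing is read from the 0.39.

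Of 29 tested interferon response genes 27 had a positive log2 fold change, 20 did not overlap upward (24.8% of all tested genes did so), 4 rose (against 3.37%) and the median was 0.41 (0.61 without EMPA replicate 2). Ifit3, an antiviral effector, had 8.197, 13.03 and 11.94 CPM in control 5w and 49.4 and 36.7 CPM in EMPA. Both EMPA hearts were more than 2-fold above every control. Ifit3 rose by 1.96 (SE 0.35, adjusted p = 0.00451) and Ifit2, its relative, by 1.06 (SE 0.24, adjusted p = 0.0128). Ifit2 lost its call without EMPA replicate 1 (0.85). The other risers, Oasl and Gbp4, were named after their values were seen and sat at 1.00 and 1.15. Both calls ended without control 5w replicate 1 (0.96 and 1.19), 2 (1.02 and 1.13) or 3 (1.03 and 1.12) or EMPA replicate 1 (0.70 and 0.69). Among 32 tested cytokines, chemokines and receptors 3 rose and 1 fell, against 3.37% and 2.60% of all tested genes. Their median was 0.01. It turned to -0.02 under upper quartile scaling and to -0.01 and -0.08 without control 5w replicate 1 and EMPA replicate 1. Without EMPA replicate 2 it was 0.26, and without control 5w replicates 2 and 3 it was 0.09 and 0.07. Cxcl12, a stromal chemokine, was the most abundant, at 384, 217 and 243 CPM in control 5w and 696 and 578 CPM in EMPA (log2 1.18, adjusted p = 0.0196). Cxcl14 had 0.565, 0.543 and 0.637 CPM and 4.93 and 3.89 CPM (log2 2.89, adjusted p = 0.0106). Ccl5, a T cell chemokine, had 5.94, 4.42 and 8.04 CPM and 41.1 and 13.1 CPM, mostly high in EMPA replicate 1 (log2 2.14, adjusted p = 0.0118). Cxcl16 fell by 1.08. Without EMPA replicate 1 the calls of Cxcl12, Cxcl14, Ccl5 and Cxcl16 ended (1.04, 2.71, 1.10 and -1.01). Those of Cxcl12 and Cxcl16 also ended without control 5w replicate 2 (1.02 and -0.82), control 5w replicate 3 (1.08 and -0.98) or EMPA replicate 2 (1.31 and -1.16), and Ccl5 was no longer called without control 5w replicate 2 (1.95) and was 2.74 without EMPA replicate 2. Lymphocyte markers had a median of 0.57 over 18 tested genes, which was -0.15 without EMPA replicate 1 and 0.95 without replicate 2. Their summed level was 93.3, 138 and 126 CPM in control 5w and 146 and 70.4 CPM in EMPA. Cd4, the most abundant, was the only marker with a negative log2 fold change (-1.46, adjusted p = 0.0624, not called). It had 54.3, 95.9 and 81.5 CPM in control 5w and 29.2 and 27.1 CPM in EMPA, with no overlap. The called marker, the natural killer receptor Klrd1, had 1.79, 2.64 and 2.86 CPM in control 5w and 24.0 and 3.52 CPM in EMPA, and without EMPA replicate 1 its fold change went from 2.48 to 0.53 with the call ended, as it did without control 5w replicate 2 (2.54) or 3 (2.61), while without EMPA replicate 2 it was 3.29. Granulocyte and mast cell markers had no edgeR call among 12 tested (2 at an unadjusted p under 0.05, 1 call by DESeq2 and 2 by limma voom). Their median of 0.18 turned to -0.93 without EMPA replicate 1, -0.10 without control 5w replicate 2 and -0.13 without control 5w replicate 3, and went to 0.85 without control 5w replicate 1 and 0.87 without EMPA replicate 2. Alox15, a lipoxygenase of eosinophils and macrophages, had 52.9, 14.7 and 20.7 CPM in control 5w and 48.6 and 8.26 CPM in EMPA, with the libraries of both groups mixed; its log2 fold change was -0.05, and 0.68, -1.83 and 0.72 without control 5w replicate 1, EMPA replicate 1 and EMPA replicate 2.

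All 16 tested endothelial markers had a positive log2 fold change, 6 rose (against 3.37% of all tested genes), 12 did not overlap upward (against 24.8%) and the median was 0.78. Their summed level was 4164, 3077 and 3563 CPM in control 5w and 8078 and 5734 CPM in EMPA, with no marker at 0. The most abundant was Fabp4, a fatty acid carrier of capillaries, with 932, 541 and 618 CPM in control 5w and 2559 and 1665 CPM in EMPA (log2 1.60), whose call ended without control 5w replicate 2 (1.45) or 3 (1.52) or EMPA replicate 1 (1.26) or 2 (1.87). Sox17, a transcription factor of arterial endothelium, had 27.0, 24.5 and 26.5 CPM in control 5w and 136 and 134 CPM in EMPA. The libraries of each group were nearly level and the groups stood about 5-fold apart. Sox17 rose by 2.37 (SE 0.19, adjusted p = 2.26e-05). Cldn5, a tight junction protein, had 38.8, 29.9 and 25.2 CPM in control 5w and 104 and 122 CPM in EMPA and rose by 1.85 (SE 0.36, adjusted p = 0.00612). Pecam1, the adhesion molecule of endothelial junctions, had 214, 202 and 225 CPM and 476 and 392 CPM. It rose by 1.03 (SE 0.23, adjusted p = 0.0113), and its call ended without control 5w replicate 2 (0.99) or EMPA replicate 1 (0.88). The number of risers in the list was 7, 3, 4, 2 and 5 without control 5w replicates 1, 2 and 3 and EMPA replicates 1 and 2, each left out alone, with Sox17 and Cldn5 among them each time. Of 6 tested lymphatic markers Pdpn fell and the median was -0.32 (-0.18 and -0.22 without control 5w replicates 1 and 2, -0.86 and -0.15 without EMPA replicates 1 and 2). Pdpn, podoplanin, had 19.6, 29.1 and 22.3 CPM in control 5w and 8.66 and 6.80 CPM in EMPA. It fell by 1.62 (SE 0.36, adjusted p = 0.011) and lost its call without EMPA replicate 1 (-1.80) or 2 (-1.45). Pericyte markers had a median of 0.32 over 8 tested genes (0.18 without control 5w replicate 2, 0.18 without replicate 3 and 0.12 without EMPA replicate 2), with no call by edgeR, DESeq2 or limma voom and 2 at an unadjusted p under 0.05.

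Smooth muscle markers differed between the EMPA hearts. Myh11, the smooth muscle myosin, had 98.6, 98.8 and 81.4 CPM in control 5w and 187 and 839 CPM in EMPA replicates 1 and 2. Replicate 2 was more than 4-fold above replicate 1, which itself lay above all controls. Myh11 rose by 2.46 (SE 0.48, adjusted p = 0.00646), and by 1.01 with the call ended without EMPA replicate 2, against 3.17 without replicate 1. Of 8 tested markers 3 rose (Myh11, Lmod1 and, named after its values were seen, Tagln), and none did without EMPA replicate 2, where the median of the list went from 1.42 to 0.29, against 2.22 without EMPA replicate 1. Lmod1, an actin nucleator, was at 2.21 and Tagln, transgelin, at 2.10. Both calls ended without control 5w replicate 1 (1.93 and 1.90), 2 (2.45 and 2.29) or 3 (2.32 and 2.16) or EMPA replicate 2 (0.37 and 0.20), and without EMPA replicate 1 they reached 2.99 and 2.89. The summed level was 2813, 4409 and 4213 CPM in control 5w and 1663 and 4775 CPM in EMPA, led by Des. Des, which is also in the sarcomere list, went the other way and was not called (log2 -1.07). It had 2209, 3771 and 3615 CPM in control 5w and 855 and 2186 CPM in EMPA. It was the only marker of the 8 with a negative log2 fold change, so the sum does not follow the other markers.

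In the list of nitric oxide and cGMP genes, the pathway that L-NAME acts on, 2 of 24 tested genes fell and 1 rose. Of all tested genes 2.60% fell and 3.37% rose. The list's median was 0.21 (0.10 without control 5w replicate 1 and 0.05 without EMPA replicate 2). Ddah1, which degrades the natural inhibitor of nitric oxide synthase, had 66.0, 136 and 124 CPM in control 5w and 8.92 and 22.1 CPM in EMPA. The lowest control was about 3-fold above the higher EMPA heart. Ddah1 fell by 2.81 (SE 0.51, adjusted p = 0.0048), and the fall was -2.30 with the call ended without EMPA replicate 1 and -3.61 without EMPA replicate 2. Pde2a, a phosphodiesterase stimulated by cGMP, had 88.2, 69.1 and 71.7 CPM in control 5w and 163 and 169 CPM in EMPA and rose by 1.12. The call of Pde2a ended without control 5w replicate 2 (1.06), control 5w replicate 3 (1.08), EMPA replicate 1 (1.15) or EMPA replicate 2 (1.09). The synthases were not called. Nos3, the endothelial form, had 194, 129 and 163 CPM in control 5w and 353 and 240.0 CPM in EMPA (log2 0.87, adjusted p = 0.0776), with both EMPA hearts above all controls, while Nos2 had 6.22, 4.19 and 5.89 CPM and 8.79 and 5.10 CPM and Nos1 had 0.283, 0.466 and 0.716 CPM and 0.799 and 0.486 CPM.

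Cardiomyocyte markers had no call by edgeR, DESeq2 or limma voom among 9 tested, and none at an unadjusted p under 0.05. They had a median of -0.03, which turned to 0.26 without control 5w replicate 1 and 0.19 without EMPA replicate 2 and was -0.22 and -0.14 without control 5w replicates 2 and 3 and -0.22 without EMPA replicate 1, and a summed level of 90584, 37372 and 41917 CPM in control 5w and 52444 and 39884 CPM in EMPA, led by Actc1 and highest in control 5w replicate 1. Tnnt2, cardiac troponin T, had 10516, 5885 and 6213 CPM in control 5w and 10552 and 8608 CPM in EMPA, a high level in all 5 libraries. The myosin Myh6 had 21437, 4279.8 and 5367 CPM and 4559 and 1707 CPM and Myh7 had 9465, 11896 and 12274 CPM and 10422 and 10734 CPM. Myh6 was lowest in EMPA replicate 2 and highest in control 5w replicate 1, and neither gene was called (log2 -1.73, SE 0.87, and -0.08, SE 0.79; -0.62 and -2.60 for Myh6 without control 5w replicate 1 and EMPA replicate 1). Of 31 tested sarcomere genes Tcap rose, Nebl fell and the median was -0.08, which turned to 0.15 without control 5w replicate 1 and 0.04 without EMPA replicate 1 and was -0.16 and -0.13 without control 5w replicates 2 and 3. Nebl, a nebulin-like protein of the Z disc, had 183, 142 and 140.2 CPM in control 5w and 56.3 and 61.3 CPM in EMPA, with every control more than 2-fold above both EMPA hearts, and fell by 1.40 (SE 0.29, adjusted p = 0.00916). Tcap, the titin cap, had 25.3, 22.6 and 32.2 CPM and 103 and 97.9 CPM, with no overlap, and rose by 1.91 (SE 0.43, adjusted p = 0.0128). Both calls ended without EMPA replicate 1 (-1.34 and 1.87) or 2 (-1.46 and 1.95), and that of Tcap also without control 5w replicate 2 (1.80). Of 28 tested calcium handling genes Camk2b alone was called, at 2.00 from 0.754, 1.40 and 1.75 CPM in control 5w and 3.46 and 7.04 CPM in EMPA, and it was not called without any single library of the 5 (1.74, 2.05 and 2.27 without control 5w replicates 1, 2 and 3, 2.42 and 1.39 without EMPA replicates 1 and 2). The list's median was -0.11 (-0.05 and -0.21 without control 5w replicates 1 and 2, -0.27 without EMPA replicate 1). Fetal and hypertrophy genes had a median of -0.17 over 30 tested genes (-0.40 without control 5w replicate 1, 0.03 and -0.47 without EMPA replicates 1 and 2) and 1 riser, Slc35f1, which had 5.75, 3.88 and 3.90 CPM in control 5w and 20.2 and 22.0 CPM in EMPA. It rose by 2.23 (SE 0.28, adjusted p = 0.000673). The natriuretic peptides Nppa and Nppb, secreted by stretched heart muscle, were at 2583, 5794 and 4311 CPM and 473, 517 and 492 CPM in control 5w. In EMPA they were at 678 and 5124 CPM and 185 and 492 CPM, low in replicate 1 and within the range of the controls, or at it, in replicate 2, and neither was called. Their log2 fold changes of -0.54 and -0.55 became -2.64 and -1.42 without EMPA replicate 2, and that of Nppa 0.28 without EMPA replicate 1.

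Of 28 tested channel genes of the working ventricle 1 rose and 3 fell, against 3.37% and 2.60% of all tested genes. Both EMPA libraries lay above all controls in 7 of these genes and below them in 6, against 24.8% and 23.4% of all tested genes. The median was -0.01 (0.24, -0.07 and -0.08 without control 5w replicates 1, 2 and 3, -0.05 and -0.02 without EMPA replicates 1 and 2). Hcn4, the pacemaker channel, had 48.0, 54.7 and 59.0 CPM in control 5w and 9.19 and 12.9 CPM in EMPA. The controls were level at more than 3-fold the higher EMPA heart. Hcn4 fell by 2.29 (SE 0.51, adjusted p = 0.0121). Kcnk3, a background potassium channel, had 44.3, 29.0 and 30.6 CPM in control 5w and 7.32 and 10.4 CPM in EMPA and fell by 1.96 (SE 0.50, adjusted p = 0.0203). Without EMPA replicate 1 (-2.06 and -1.73) or 2 (-2.55 and -2.24) both calls ended. Kcnj2, the inward rectifier, was named after its values were seen; it was at -1.30 and lost its call without control 5w replicate 3 (-1.31) or EMPA replicate 2 (-0.82), with -2.02 without EMPA replicate 1. Kcnd3, of the transient outward current, rose by 1.07 with a p close to the threshold (adjusted p = 0.0485), a call that ended under both other scalings and without control 5w replicate 2 (0.88) or 3 (0.97) or EMPA replicate 1 (0.85) or 2 (1.25). Scn1a, a sodium channel first known from neurons, had 25.6, 20.0 and 24.5 CPM in control 5w and 34.5 and 37.7 CPM in EMPA. Both EMPA hearts were higher than every control, and it was not called (log2 0.63, adjusted p = 0.128). The drug's target family was close to the detection limit. Slc5a2, which encodes SGLT2, had 9, 18 and 11 counts in control 5w and 14 and 6 in EMPA (log2 0.30, not called, and -0.51 without EMPA replicate 1). Slc5a1, which encodes SGLT1, had 1, 0 and 0 counts in control 5w and 0 and 0 in EMPA and was not tested. In the list of sodium handling genes Sgk1 was the only call among 15 tested and the median was -0.03 (0.31, -0.18 and -0.13 without control 5w replicates 1, 2 and 3, -0.51 and 0.19 without EMPA replicates 1 and 2). Atrial and conduction markers had a median of -0.26 over 11 tested genes (-0.50 and -0.03 without control 5w replicates 1 and 2, 0.08 and -0.77 without EMPA replicates 1 and 2), with Hcn4 their only call. The atrial light chain Myl7 had 694, 293 and 307 CPM in control 5w and 8.79 and 16.8 CPM in EMPA, so every control was more than 10-fold above EMPA, yet it was not called (-5.07, SE 2.30, adjusted p = 0.147). Across control 9w its values were 1083, 10.3 and 4260.4 CPM.

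Cartilage and bone genes gave some of the largest fold changes and rested on EMPA replicate 2. Comp, a cartilage matrix protein, had 1.51, 2.56 and 1.19 CPM in control 5w and 4.39 and 223 CPM in EMPA replicates 1 and 2, and 402, 3.30 and 29.4 CPM in the HFpEF hearts. EMPA replicate 2 and HFpEF replicate 1 were the high ones. Comp rose by close to 6 on the log2 scale (SE 1.53, adjusted p = 0.0211) and without EMPA replicate 2 by 1.31, which was not called, against 6.97 without EMPA replicate 1. Ibsp, a bone sialoprotein, had 0, 0 and 0 counts in control 5w and 10 and 1952 in EMPA. It was at least 474-fold higher in EMPA with the floor of 3 counts per control library. Col2a1, the collagen of cartilage, had 1, 2 and 0 counts in control 5w and 5 and 6071 in EMPA, a ratio of 4640.4 (95% counting interval 1587 to 22508). Mmp13, a collagenase of cartilage and bone, had 1, 1 and 0 counts and 1 and 1100 counts, a ratio of 1261 (95% counting interval 348 to 10428). Such intervals and floors cover counting error only. Nearly all counts of these genes in EMPA came from replicate 2, and without it Ibsp, Col2a1 and Mmp13 were not called (fitted log2 6.77, 2.83 and 1.10, against 14.24, 12.92 and 10.94 without replicate 1). Bglap, osteocalcin, had 3, 5 and 1 counts in control 5w and 0 and 237 in EMPA, and its fitted log2 fold change of 5.78 turned to -4.42 without EMPA replicate 2 and was 6.78 without EMPA replicate 1. Without control 5w replicate 2 or 3 the calls of Ibsp (13.21 and 13.21), Col2a1 (12.69 and 11.36), Mmp13 (10.22 and 9.42), Comp (6.39 and 5.78) and Bglap (6.27 and 5.36) ended, as did that of Col2a1 without control 5w replicate 1 (12.00). Of 7 tested markers of cartilage, bone and valve 5 rose, against 3.37% of all tested genes. Both EMPA libraries lay above all controls in 4 of the 7, against 24.8% of all tested genes. Matn1 was at 0 in all 5 libraries, and the median was 5.78 (1.31 without EMPA replicate 2). The summed level was 40.7, 38.1 and 38.0 CPM in control 5w and 116 and 1389.8 CPM in EMPA, led by Col2a1. The 5 that rose were Ibsp, Bglap, Comp, Col2a1 and, named after its values were seen, Cytl1. Cytl1 was high in both EMPA hearts (24.4, 15.0 and 15.8 CPM in control 5w and 100.4 and 119 CPM in EMPA, log2 2.58). The call of Cytl1 ended without control 5w replicate 2 (2.45) or 3 (2.48) or EMPA replicate 1 (2.70) or 2 (2.45). The part of cartilage or valve tissue in this result was not tested. Fmod, a collagen-binding proteoglycan of tendon and cartilage, followed the same library, with 3.67, 5.90 and 5.57 CPM in control 5w and 12.0 and 139.7 CPM in EMPA. Without EMPA replicate 2 its log2 fold change went from 3.90 to 1.24 and the call ended, and without EMPA replicate 1 it went to 4.78. The same call ended without control 5w replicate 2 (4.03) or 3 (3.98). Col9a1, another cartilage collagen, had 2, 1 and 2 counts in control 5w and 3 and 138 in EMPA, a ratio of 64.6 (95% counting interval 27.0 to 202), and was not called without any single library (fitted log2 6.06, 5.54 and 5.93 without control 5w replicates 1, 2 and 3, 6.79 and 1.44 without EMPA replicates 1 and 2).

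Outside the lists, some of the largest differences were between silence and low expression. RGD1306750 had 0, 0 and 0 counts in control 5w and 96 and 34 in EMPA. Both EMPA libraries held it and no control did, so it was at least 33.6-fold higher (adjusted p = 0.000796), and it passed without any single library (fitted log2 8.40 and 10.02 without EMPA replicates 1 and 2). Magea11 had 0, 0 and 0 counts in control 5w and 11 and 39 in EMPA, at least 12.3-fold higher (adjusted p = 0.00775), and was not called without EMPA replicate 2 (fitted 6.91, and 8.601 without replicate 1). Acsm5, an acyl-CoA synthetase of medium-chain fatty acids, had 0, 0 and 0 counts in control 5w and 49 and 21 in EMPA, at least 18.1-fold higher (adjusted p = 0.0162). Its call ended without control 5w replicate 2 (8.49 as fitted), control 5w replicate 3 (8.49) or EMPA replicate 1 (7.71). In the other direction the olfactory receptor gene Olr1424 had 16, 37 and 45 counts in control 5w and 0 and 0 in EMPA, at least 6.95-fold lower (adjusted p = 0.00937). The dopamine receptor gene Drd4 had 42, 26 and 38 counts and 1 and 0 counts, a ratio of 0.0216 (95% counting interval 0.000542 to 0.123). Without EMPA replicate 1 or 2 neither of this pair was called (as fitted -7.77 and -7.77 for Olr1424, -7.94 and -4.37 for Drd4). Kcnv2, a modifier subunit of potassium channels, had 13.1, 16.2 and 20.3 CPM in control 5w and 0.400 and 1.82 CPM in EMPA. All controls were 7-fold or more above the higher EMPA heart, a fall of -3.86 (SE 0.72, adjusted p = 0.00528) that was -3.17 with the call ended without EMPA replicate 1 and -5.33 without EMPA replicate 2. Other large falls were those of A4galt, a galactosyltransferase, with 15, 89 and 68 counts in control 5w and 3 and 2 in EMPA, Cdca2, a mitotic phosphatase subunit, with 23, 62 and 55 and 3 and 3 counts, Mrgprx3, an orphan receptor, with 3, 35 and 30 and 1 and 1 counts, and Opcml, a neural adhesion molecule, with 87, 36 and 43 and 2 and 2 counts. The ratios were 0.0666 (95% counting interval 0.0214 to 0.158), 0.0982 (0.0354 to 0.219), 0.0674 (0.00800 to 0.253) and 0.0552 (0.0149 to 0.144). None of these 4 was called without control 5w replicate 2 (fitted -3.38, -3.06, -3.29 and -4.44), control 5w replicate 3 (-3.66, -3.16, -3.46 and -4.36), EMPA replicate 1 (-4.17, -3.34, -3.77 and -4.23) or EMPA replicate 2 (-3.49, -3.21, -3.65 and -4.11), nor Opcml without control 5w replicate 1 (-3.54). Of the abundant genes, the membrane protein Emp1 had 384, 912 and 835 CPM in control 5w and 234 and 292 CPM in EMPA and fell by 1.43. Its call ended without control 5w replicate 2 (-1.21) or 3 (-1.30) or EMPA replicate 1 (-1.28) or 2 (-1.60). The call of Emp1 also ended with the replicate number as a block, and its value lay between -1.91 and -1.21 over all alternatives.

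Other lists held few calls. Cytosolic ribosomal proteins had 58 of 66 tested genes above 0, a median of 0.19 (0.29 and 0.12 without EMPA replicates 1 and 2) and 1 riser, Rpl30, with 113, 211 and 203 CPM in control 5w and 425 and 433 CPM in EMPA (log2 1.29, adjusted p = 0.0183; not called without EMPA replicate 1 at 1.30 or 2 at 1.27). Heat shock proteins and chaperones had no edgeR call among 31 tested genes (4 at an unadjusted p under 0.05, 1 call by DESeq2 and 1 by limma voom) and a median of -0.13 (0.01 and -0.26 without EMPA replicates 1 and 2). Antioxidant genes and NRF2 targets had no call by any of these tools among 28, 7 at an unadjusted p under 0.05 and a median of 0.07 (0.16 without control 5w replicate 1). Receptors and enzymes of the renin-angiotensin, endothelin and adrenergic systems had a median of -0.22 over 28 genes (-0.05 and -0.13 without control 5w replicates 1 and 2), and Mas1, the angiotensin-(1-7) receptor, rose from 2.92, 1.55 and 1.83 CPM in control 5w to 6.13 and 8.62 CPM in EMPA (log2 1.81, adjusted p = 0.00632; 1.54 and not called without EMPA replicate 2). Of 33 genes of the G-protein and protein kinase C signalling that the study names, a list chosen by its authors on these samples, Prkce fell and the median was -0.30. Prkce, the epsilon isoform of protein kinase C, had 27.2, 20.1 and 20.5 CPM in control 5w and 8.92 and 8.50 CPM in EMPA (log2 -1.37, adjusted p = 0.00812; not called without EMPA replicate 1 at -1.41 or 2 at -1.34). Lipoxygenases and prostanoid enzymes had 2 risers among 21 tested genes and a median of -0.42 (-0.69 without EMPA replicate 1). The secreted phospholipase Pla2g2a had 59.4, 11.1 and 15.6 CPM in control 5w and 302 and 98.9 CPM in EMPA, and rose by 2.81 (adjusted p = 0.0128), but by 1.79 without EMPA replicate 1 and by 2.51 without control 5w replicate 3, with the call ended in both, by 3.91 without control 5w replicate 1 and by 3.40 without EMPA replicate 2. The epoxygenase Cyp2j4 rose by 1.18 and lost its call without control 5w replicate 2 (1.18) or 3 (1.11) or EMPA replicate 1 (0.96). Erythroid and platelet markers had a median of 0.62 over 8 genes, -0.77 and 1.04 without EMPA replicates 1 and 2 and 1.00 without control 5w replicate 1, and 1 call, the platelet gene Gp9 with 0, 1 and 2 counts in control 5w and 14 and 2 in EMPA, which was not called without EMPA replicate 1 (fitted 1.43) or control 5w replicate 2 (3.43) and was 4.27 without control 5w replicate 3 and 4.31 without EMPA replicate 2. Adipocyte markers had a median of 2.88 over 6 genes (1.91 without EMPA replicate 1, and between 0.97 and 4.73 over all alternatives) with Lipe as the only call. Medians were, for mesothelial markers, 1.91 over 6 (1.47 with the floor) with Wt1 as the only call, and for Schwann cell and nerve markers 1.51 over 9 (0.85 without EMPA replicate 2) with 1 call. Wt1 rose by 1.35 and was not called without control 5w replicate 2 (1.13) or 3 (1.32) or EMPA replicate 1 (0.92) or 2 (1.67). Skeletal muscle markers had a median of 0.20 over 7 genes (-0.25, 0.41 and 0.56 without control 5w replicates 1, 2 and 3, 0.75 and 0.02 without EMPA replicates 1 and 2), no edgeR call, 2 at an unadjusted p under 0.05, and 1 call by DESeq2 and 2 by limma voom. Sex-linked genes had a median of 0.01 over 4, which was -0.01 under upper quartile scaling, -0.23 and -0.10 without control 5w replicates 2 and 3 and -0.26 without EMPA replicate 1, and 0.04 and 0.04 without control 5w replicate 1 and EMPA replicate 2, with no call by the 3 tools and none at an unadjusted p under 0.05.

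Values of other groups of the series show where the EMPA hearts stood among hearts of the same week and hearts before treatment. The differences of HFpEF and of control 9w from control 5w share the control 5w libraries with the comparison described here, so they are only set side by side with it. The class I gene RT1-CE16 has 0 and 0 counts in EMPA and 0 to 3 in each control 5w and HFpEF library, whereas every other library of week 9 holds it. Its lowest and highest counts are 308 and 720 in EMPA with pirfenidone, 463 and 545 in pirfenidone alone, 825 and 922 in control 9w, and 583 and 684 in untreated hearts. RT1-A3 and RT1-Bb, named after their values were seen, are split in the same way. Since the absence of RT1-CE16 from EMPA belongs to the choice of the comparison, these counts are a description only. Eif2s3y has 0 in HFpEF replicates 1 and 3. Ddx3 and LOC100911498, named after their values were seen, have 0 and 0 counts, and 27077 and 17699 counts, in the same HFpEF libraries, 1084 and 1 in HFpEF replicate 2, and 929 and 855, and 6 and 3, in EMPA. Untreated and pirfenidone libraries follow HFpEF replicates 1 and 3 in Eif2s3y, Ddx3 and LOC100911498, although all labels give male. Drug and a difference in animals or labels cannot be told apart in the tests of EMPA against HFpEF and against control 9w below. For Angptl4 the log2 fold change against control 5w was 5.62 in EMPA, 5.36 in HFpEF and 3.07 in control 9w. Pdk4 stood at 3.80, 1.36 and 2.02 in the same order, Hk2 at -2.84, -2.38 and -3.23, and Zfp36 at 2.15, 2.23 and 2.19. For Nfkbia the 3 values were 2.60, 2.24 and 3.01, for Sox17 2.37, 1.63 and 3.05, and for Col3a1 -3.04, -1.25 and -3.47.

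A direct test between EMPA and control 9w called 57 genes (0.460% of the tested genes), and 1767 had an unadjusted p under 0.05. The count was 203 with DESeq2, 31 with the replicate number as a block, 14 without control 9w replicate 1 and 47 without control 9w replicate 3. RT1-CE16, with 922, 825 and 913 counts in control 9w and none in EMPA, is among the 57, and since its absence from EMPA belongs to the choice of the comparison nothing is read from that call. Angptl4 had 9.93, 11.8 and 7.98 CPM in control 9w, below both EMPA hearts, and was higher in EMPA by 2.55 (SE 0.39, adjusted p = 0.00827). The call ended without control 9w replicate 1 or EMPA replicate 2, and its value stayed between 2.42 and 2.70 when any 1 of the 5 libraries of these groups was left out. Hcn4 had 1.35, 0.369 and 2.49 CPM in control 9w, so EMPA lay between control 5w and control 9w, above the latter by 2.92 (SE 0.55, adjusted p = 0.0266). Rpl30 was higher in EMPA than in control 9w by 1.62 (adjusted p = 0.0352), and Id1 was lower by 1.29 (log2 -1.29, adjusted p = 0.0424). Hcn4 and Id1 were each called in only 1 of the 5 fits that left out a library, with values from 2.50 to 3.64 and from -1.54 to -1.08, and Rpl30 in none (1.48 to 1.71). Of 24 tested clock and clock output genes 1 was called higher and 1 lower, and the median was -0.54. Arntl had 14.1, 17.5 and 16.5 CPM in control 9w (log2 1.97, adjusted p = 0.222). Dbp had 207, 203 and 183 CPM there (-2.37, adjusted p = 0.0749). Neither was called, and the part of the time of day was not tested. Against HFpEF hearts 50 genes were called (0.404%), and 2720 had an unadjusted p under 0.05. That count was 437 with DESeq2, 4 with the replicate number as a block, 0 without HFpEF replicate 1 and 183 without HFpEF replicate 2. LOC100911498, whose counts are given above, was among the 50 (adjusted p = 0.048). Decr1 had 92.1, 131 and 209 CPM in HFpEF, lower than both EMPA hearts, with a difference of 2.17 (SE 0.47, adjusted p = 0.048) that was called in none of the fits leaving out 1 library (1.74 to 2.54). Scn1a had 6.32, 12.6 and 12.5 CPM in HFpEF and was higher in EMPA by 1.79 (SE 0.27, adjusted p = 0.0204), with the call ended without HFpEF replicate 1, EMPA replicate 1 or EMPA replicate 2 (1.52 to 1.95 over the 5 fits). The lymphatic chemokine gene Ccl21 had 865, 174 and 283 CPM in HFpEF and 15.0 and 20.0 CPM in EMPA, with a difference of -4.65 (adjusted p = 0.0444). It was called in 1 of the 5 fits, with values from -5.03 to -3.70. Folr2 had 54.3, 18.0 and 35.2 CPM and Pdpn 40.3, 19.6 and 25.3 CPM in HFpEF. They were lower in EMPA, at -1.93 (adjusted p = 0.048) and -1.88 (adjusted p = 0.0413), and each was called only without HFpEF replicate 2 (-2.25 to -1.49 and -2.09 to -1.54 over the 5 fits). Pdk4, Hk2, Nfkbia, Zfp36, Sgk1, Sox17, Col3a1 and Csf1r were called in neither test.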

How the data were processed

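RNA of rat left ventricles was sequenced, 1 library per heart, and the authors deposited raw counts per gene symbol, made by trimming reads with Trim Galore, quality control with FastQC, alignment to rn6 with HISAT2 and counting with htseq-count. The overlap mode, the strand setting and the annotation version are not stated. The table of the whole series repeats these counts and was set aside.

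Genes were tested with edgeR 4.0.16 in R 4.3.3 on the counts of all 19 libraries in 1 model with 7 groups. Genes were filtered by group with filterByExpr and libraries scaled with TMM, and the contrast EMPA minus control 5w was tested two-sided with the quasi-likelihood F test. P-values were adjusted by Benjamini-Hochberg over the 12388 tested genes. A DEG had an adjusted p under 0.05 and lay 1 or more from 0 in log2 fold change. The whole path was tested on simulated data with known changes. EMPA was tested in the same way against control 9w and HFpEF, and HFpEF and control 9w against control 5w gave fold changes only. Counting intervals are exact binomial at 95%, and a group at 0 counts was given a floor of 3 counts per library.

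Named genes are the 10 largest rises and 10 largest falls among DEGs without overlap and with a mean of at least 1 CPM, the 8 most abundant DEGs in each direction, up to 2 DEGs per direction of each list by p (or its 2 most abundant members where fewer were called), and a set of genes of the drug target, nitric oxide synthases, natriuretic peptides, myosins, collagens and the clock. Some genes that this rule names are not reported. The 29 gene lists and 17 marker lists hold 1115 genes, of which 1002 were tested. The libraries of the comparison and the lists were chosen with earlier results of these data known. Promoter windows and their coordinates come from RefSeq on GRCr8, and motifs were matched as exact letters on both strands.

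Alternatives were relative log expression and upper quartile scaling, other count filters, DESeq2 1.42.0, limma 3.58.1 (voom with quality weights), fewer groups in the model, replicate number as a block, thinning of the counts, the adjusted p alone and leaving out each library.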

Additional observations from a re-analysis of the deposited data

How the results depend on the processing

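The count of DEGs between EMPA and control 5w, 740, was 744 with relative log expression scaling, 737 with upper quartile scaling, 695 with every gene that had a count, 562 with at least 10 counts in every library, 987 with DESeq2, 649 with only control 5w, control 9w and EMPA in the model, and 705 after thinning to the smallest total. It moved to 1605 with limma voom, 343 with only the 5 libraries, 480 with the replicate number as a block, and 1668 with the adjusted p alone, which drops the fold criterion by construction. The deviations from the group mean in control 5w and EMPA libraries of the same number correlated across genes at 0.434 and 0.437 for numbers 1 and 2 (Pearson, where genes are not independent replicates), and the labels do not say that equal numbers were processed together. The count ran from 197 to 1101 when 1 library was left out, and the cause of these differences was not tested. No DEG changed direction under these alternatives, except 2 without EMPA replicate 2.

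The count of EMPA against control 9w, 57, was 203 with DESeq2, 31 with the replicate block, 85 with only those groups, and 8 to 47 without 1 library. The count of EMPA against HFpEF, 50, was 437 with DESeq2, 4 with the replicate block, 0 with only those groups (2108 genes at an unadjusted p under 0.05 in edgeR) and 0 to 183 without 1 library. The cause was not tested.

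Of the 91 named DEGs, 90 were called under either other scaling, 87 with every gene that had a count, 87 with DESeq2, 85 with limma voom, and 68 with the replicate block. Of those tested with fewer libraries, 48 of 86 were called with the 5 libraries alone and 71 of 86 with 3 groups. Without control 5w replicates 1, 2 and 3, 85, 47 and 52 were called, and without EMPA replicates 1 and 2, 31 and 35, where the lone EMPA library is assumed to vary like the other groups. Bglap, at 5.78, was the only named DEG to reverse, at -4.42 without EMPA replicate 2 and -4.32 with EMPA replicate 1 against control 5w replicates 2 and 3, and it was 6.78 without EMPA replicate 1. It had 0 counts in EMPA replicate 1. Over all named genes and alternatives, 2244 values kept their side of the threshold and counted as unmoved, 333 lost the call and 22 gained it. A further 49 that were never called moved by more than their error. For uncalled genes the sign could turn, as for Alox15, at -0.05 and at 0.68 without control 5w replicate 1. Of the list medians, 719 stayed within the spread between replicates and 108 moved beyond it.

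A pair of alternatives was chosen after seeing the data. Without HFpEF replicate 1 and the second untreated library, which lie far from their groups, the count was 964 and all 88 named DEGs still tested were called. Without control 5w replicate 1 and EMPA replicate 2 together it was 799, 56 of the 91 named DEGs were called, and 2 of the 740 DEGs changed direction.

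With 2 EMPA hearts no permutation test can pass, and a gene's call rests on the spread shared across groups. The EMPA libraries hold 7430539 and 8061054 counts, which limits genes with few counts in control 5w. Drug, gavage, L-NAME with diet and 4 weeks of age differ together between the groups. The labels give 5 weeks of L-NAME and diet, whereas the study's text also speaks of 9 weeks of induction, so the exposure in weeks 5 to 9 is not settled. HFpEF replicates 1 and 3 lack the counts of Y-linked genes that EMPA and control 5w have, which limits the test of EMPA against HFpEF. EMPA lacks the RT1-CE16 counts that every other library of week 9 has, which limits the test against control 9w. Cell numbers were not measured.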
